A study of Mus musculus with 4 samples.

Results

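Mitochondria carry a small genome of their own, and the complexes of the respiratory chain are built from its products together with subunits made from nuclear genes and imported. The mitochondrial genes considered here are those rows of the authors' deposited table that lie on the mitochondrial chromosome, plus the rows whose symbol begins with the stem of a respiratory complex subunit, a mitochondrial ribosomal protein, an import component, a carrier, a citric acid cycle enzyme or a few related proteins, with Slc25a20 left out. The rule gave 55 of the 2701 genes in the table, of which 7 are mitochondrially encoded and 48 nuclear. The rule used names and position only. The table itself, however, holds only genes that had already passed the authors' test between the genotypes, so every member had to differ, and the number of members that differ is no result.

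The respiratory complexes I to IV pass electrons from NADH and succinate to oxygen and pump protons across the inner membrane, and complex V, the ATP synthase, uses the resulting gradient. Mitochondrial DNA is transcribed by a dedicated RNA polymerase, and its messages are translated on mitochondrial ribosomes whose proteins are all nuclear products. In the stomach, acid-secreting parietal cells are known for their density of mitochondria, while the pylorus is made mainly of mucous glands with few parietal cells.

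The samples were sections of 10 µm from the frozen pyloric region of C57BL/6 mouse stomachs. The WT mice carried floxed alleles of both Lats genes (Lats1fl/fl;Lats2fl/fl) without a Cre. The Lats1/2iΔLgr5 mice were of the same floxed genotype and also carried Lgr5-CreER, a tamoxifen-activated Cre driven from the stem cell gene Lgr5. Both groups had 2 libraries and were collected 8 weeks after tamoxifen. Recombination begins in Lgr5-positive cells, and the sections hold recombined and unrecombined epithelium with other tissue, and each level averages over all of them. In such bulk samples fewer cells of a type and less RNA per cell cannot be told apart. The labels do not say whether the 2 libraries of a group come from separate mice, and p-values then measure only the spread between these libraries.

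The listed genes held between 13413629 and 17689207 counts per library. Lats1 had 2152 and 1974 normalized counts in WT and 942.5 and 1129 in Lats1/2iΔLgr5, and the authors' deposited table puts its adjusted p at 1.43e-05, and Lats2 has no row. Of pylorus and surface mucous markers, 8 of 13 were listed and all were lower in Lats1/2iΔLgr5, with a summed level of 4636800 and 4964700 against 2550200 and 2135800 normalized counts. Gkn2, at 2237930 and 2345550 against 1185960 and 939248, and Gkn1, at 1758280 and 1773730 against 984472 and 698363, made up most of it. Pdx1 stood at 1829 and 2193 against 1297 and 1140. Of parietal markers, 4 of 14 were listed (Kcnj15, Slc9a2, Car2 and Slc9a4) and all were lower, with a summed level of 112610 and 111090 against 75544 and 70663. Most of that sum was Car2, at 94488 and 91367 against 64277.5 and 59981. The markers Atp4a and Atp4b have no row. Of the proliferation markers, all 17 were listed and higher, with a summed level of 13787 and 18743 against 36716 and 39915. Of 9 adipocyte markers Cidec and Pparg were listed and lower, with a summed level of 9736 and 12955 against 5411 and 5239.7, and of 7 chief cell markers Rab3d was listed and lower, at 11152 and 10759 against 8097 and 8419. No leukocyte, enteric neuron or erythroid marker was listed. The part of these markers in the values given next was not tested.

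In the Lats1/2iΔLgr5 pylorus the listed members within each of the following groups shared a direction, while most annotated genes of these groups have no row and no call here. The 25 listed of 107 respiratory complex genes, the 4 listed of 24 citric acid cycle genes and the 7 listed of 37 mitochondrially encoded genes fell. The 4 listed of 78 mitochondrial ribosomal protein genes, the 3 listed of 26 import genes and Polrmt, the mitochondrial RNA polymerase, rose. Among the 48 nuclear members, 10 rose and 38 fell, and all 7 mitochondrially encoded members fell. By inference from the deposited p-values the authors tested about 13137 genes, of which 20.6% are listed, and 42.9% of the listed genes are higher. Rose and fell refer throughout to the authors' deposited calls at an adjusted p of at most 0.05. Levels are normalized counts, meaning counts divided by the authors' size factors, and log2 fold changes with their standard error (SE) are Lats1/2iΔLgr5 over WT from edgeR on the same factors.

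The size of the falls depends on those factors, which were 0.792 and 0.907 in WT and 1.10 and 1.28 in Lats1/2iΔLgr5, a ratio of 1.4 between the group means. Before division, the 25 listed respiratory complex genes summed to 150150 and 188516 counts in WT and 158340 and 166423 in Lats1/2iΔLgr5. The libraries differ in depth, and as a share of all listed counts these genes were higher in Lats1/2iΔLgr5. That share was 1.05% and 1.07% in WT and 1.18% and 1.17% in Lats1/2iΔLgr5, and it depends also on the other listed genes, all selected for differing. After division the sums were 189480 and 207919 against 143364 and 130073, and the groups no longer overlapped. The selection on these factors made this likely, since the groups do not overlap for 99.9% of the listed rows. A scaling computed on the listed genes alone assumes that most of them do not differ, while the authors' selection kept only genes called as differing. It therefore cannot show which factors are right. TMM scaling of this kind moved the log2 fold changes up, by a median of 0.362 over all listed genes and by 0.346 to 0.372 for the members. On that scale all 55 members kept their direction, as did all other genes fitted, but edgeR's quasi-likelihood test called 4 of the 38 lower nuclear members and 0 of the 7 mitochondrially encoded ones (0 also at an unadjusted p under 0.05), beside 495 of 1542 lower genes over the table. It called all 10 higher members, and 1157 of 1158 higher genes over the table, so that the rises of the members stand out in no way by this count.

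**Figure D1:**
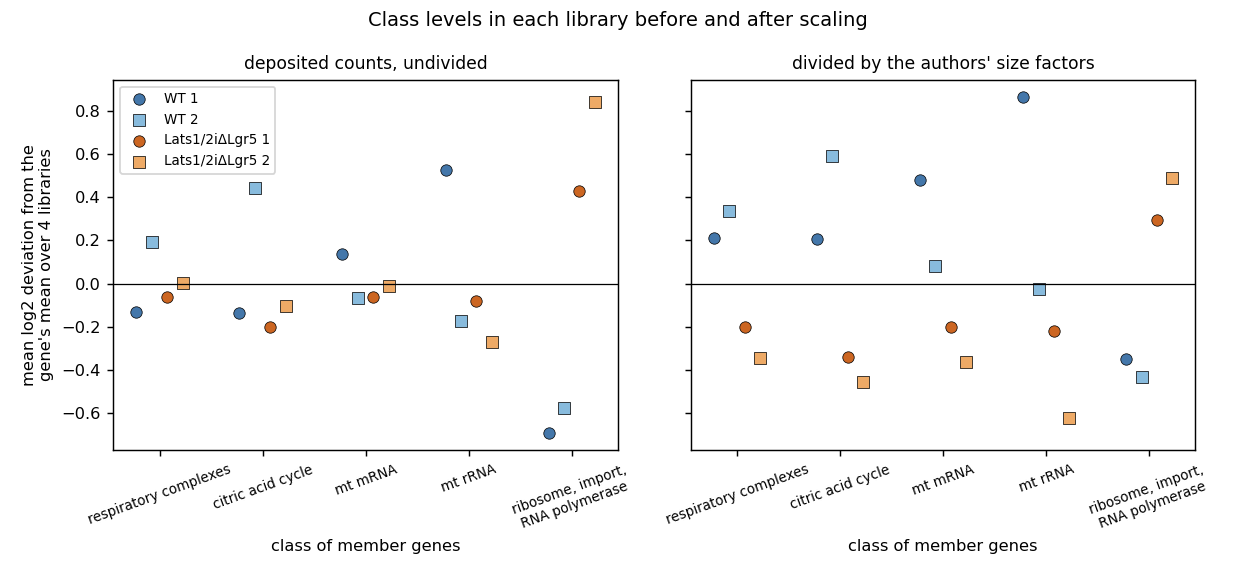
Mean log2 deviation of each class of member genes from the gene's own mean over 4 libraries, with deposited counts on the left and counts divided by the authors' size factors on the right; points are libraries. Undivided, the respiratory complex genes of the 2 groups overlap and the ribosome, import and RNA polymerase genes are high in both Lats1/2iΔLgr5 libraries. After division the lower classes also separate, as do 99.9% of all listed rows.

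Of the 37 annotated genes of the mitochondrial chromosome, 7 have a row. They comprise 4 of 13 mRNAs (mt-Co1, mt-Cytb, mt-Nd2 and mt-Nd4), both rRNAs (mt-Rnr1 and mt-Rnr2) and 1 of 22 tRNAs (mt-Tp). The other genes of the mitochondrial chromosome were not analysed here.

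mt-Co1 (ENSMUSG00000064351, chromosome MT, 5328 to 6872 of GRCm38) encodes the catalytic subunit of cytochrome c oxidase. It had 701071 normalized counts in WT 1, 528917 in WT 2, 440914 in Lats1/2iΔLgr5 1 and 347824 in Lats1/2iΔLgr5 2. WT 1 was the highest and Lats1/2iΔLgr5 2 the lowest. The mean went from 614994 ± 121731 to 394369 ± 65825 (SD, n = 2), 1.56-fold lower, with a log2 fold change of -0.64 ± 0.23 (SE).

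mt-Cytb, the cytochrome b of complex III (chromosome MT, 14145 to 15288), had 267207 normalized counts in WT 1, 211265 in WT 2, 171714 in Lats1/2iΔLgr5 1 and 160181 in Lats1/2iΔLgr5 2. The Lats1/2iΔLgr5 libraries lay close together below both WT libraries, at a log2 fold change of -0.53 ± 0.18. mt-Nd2 and mt-Nd4 (chromosome MT, 3914 to 4951 and chromosome MT, 10167 to 11544) encode membrane subunits of complex I that take part in proton pumping. mt-Nd2 had 80025 and 59922 against 47724 and 48037 and mt-Nd4 75612 and 56199.5 against 47693 and 41218 normalized counts, WT against Lats1/2iΔLgr5. The deposited adjusted p-values of the 4 mRNAs lay between 0.0263 and 0.0414 in the authors' deposited table.

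Per kilobase of annotated exon, merged over all isoforms of a gene, the WT level was 398054 normalized counts for mt-Co1. It was 209122 for mt-Cytb, 67412 for mt-Nd2 and 47827 for mt-Nd4. The rRNAs stood below them in these poly(A)-selected libraries, at 18845 per kilobase for mt-Rnr1 and 15732 for mt-Rnr2. The difference between the rRNAs was not tested.

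mt-Rnr1 and mt-Rnr2 (chromosome MT, 70 to 1024 and chromosome MT, 1094 to 2675) are the RNAs of the small and large mitochondrial ribosomal subunits. mt-Rnr1 had 23314 and 12680.3 against 11058 and 8385 normalized counts, WT against Lats1/2iΔLgr5. mt-Rnr2 had 32437 and 17338 against 15241 and 11505. In both, WT 1 stood far above the other 3 libraries, and WT 2 lay nearer to Lats1/2iΔLgr5 1 than to WT 1. Without WT 1, the log2 fold change moved from -0.89 to -0.38 for mt-Rnr1 and from -0.90 to -0.37 for mt-Rnr2. The mRNAs moved in the same way, to -0.42 for mt-Co1, -0.35 for mt-Cytb, -0.32 for mt-Nd2 and -0.34 for mt-Nd4, and edgeR then called 0 of these 6 genes, also at an unadjusted p under 0.05. Across the 7 genes the median log2 ratio of WT 2 to WT 1 was -0.42, against 0.09 over all listed genes, and that of Lats1/2iΔLgr5 2 to Lats1/2iΔLgr5 1 was -0.34, against -0.02.

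mt-Tp is the tRNA for proline, encoded on the strand opposite to the other listed mitochondrial genes (chrMT:15356-15422, minus strand, GRCm38). Its gene sequence from the reference genome is shown with the anticodon TGG, bases 31 to 33, in capitals, because the gene's 67 bases are fewer than the 75 of a read, so that a read counted there reaches past its ends or is trimmed.
mt-Tp: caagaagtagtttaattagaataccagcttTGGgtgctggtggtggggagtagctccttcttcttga

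mt-Tp had 4611 normalized counts in WT 1, 3725 in WT 2, 2657 in Lats1/2iΔLgr5 1 and 1891 in Lats1/2iΔLgr5 2. It fell 1.83-fold, with a log2 fold change of -0.87 ± 0.21 and 0.0043 as the authors' deposited adjusted p. Its log2 fold change was -0.71 without WT 1, -1.14 without Lats1/2iΔLgr5 1 and -0.65 without Lats1/2iΔLgr5 2. On the TMM scale it was -0.52 and was not called by edgeR's quasi-likelihood test (adjusted p = 0.0789). Whether counting used strand is not given in the sources used here, and without it reads of mt-Tp and of the opposite strand cannot be told apart. Nuclear chromosomes also carry copies of mitochondrial sequence, and how reads with several matches were treated is not given either.

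**Figure D2:**
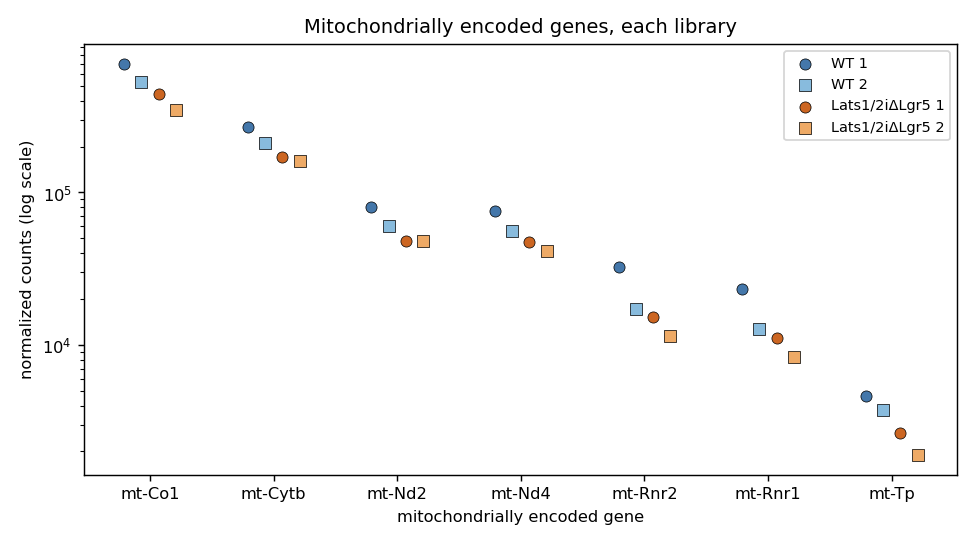
Normalized counts (log axis) of the 7 listed mitochondrially encoded genes in each of the 4 libraries. WT 1 is the highest library for every gene, with mt-Rnr2 at 32437 against 17338 in WT 2.

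Of 107 annotated genes for nuclear subunits of complexes I to V, or named after them, 25 have a row (23.4%, against 20.6% of all genes tested), and all 25 fell. The annotated number includes genes that may not be expressed in stomach. Their log2 fold changes ran from -0.72 to -0.45 with a median of -0.54, beside a median of -0.73 over the 1542 lower listed genes. They varied little among themselves, with an SD over the 25 genes of 0.07 against a median SE of 0.14, and no order among the subunits is read from them. Subunits with smaller changes were less able to enter the table, so part of this narrow range comes from the authors' selection. None of the 25 log2 fold changes moved by more than 1.5 times when any single library was left out. Their calls were less stable and were lost without some libraries, as given in the closing sections.

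Complex I, the NADH dehydrogenase, had 4 of 46 annotated genes listed. Ndufs4, an accessory subunit of the matrix arm, had 4723 normalized counts in WT 1, 5553 in WT 2, 3351 in Lats1/2iΔLgr5 1 and 3324 in Lats1/2iΔLgr5 2, and both Lats1/2iΔLgr5 libraries were lower. Its log2 fold change was -0.62 ± 0.14. The accessory membrane arm subunits Ndufb5 and Ndufb7 had log2 fold changes of -0.54 ± 0.15 and -0.45 ± 0.14. The mitochondrially encoded complex I genes mt-Nd2 and mt-Nd4 stood at -0.55 ± 0.19 and -0.57 ± 0.20, inside the range of these nuclear subunits. Without WT 1 they were -0.32 and -0.34, while the complex I members ran from -0.73 to -0.52.

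Complex II, succinate dehydrogenase, was represented by Sdhc, a membrane anchor, 1 of 8 annotated genes. It had 6693 normalized counts in WT 1, 7572 in WT 2, 4738 in Lats1/2iΔLgr5 1 and 4871 in Lats1/2iΔLgr5 2, a fall of 1.48-fold. Complex III had 4 of 8 annotated genes listed: the core protein gene Uqcrc2, the hinge protein gene Uqcrh and the small subunit genes Uqcrb and Uqcr10. Uqcrh was the most abundant in counts, with 13028 and 12786 against 9140.2 and 8651 normalized counts, WT against Lats1/2iΔLgr5, and had the smallest deposited adjusted p of the 4 (0.0012). Their log2 fold changes of -0.54 to -0.46 bracketed that of mt-Cytb at -0.53. Without WT 1 they did not, with mt-Cytb at -0.35 and the nuclear genes from -0.60 to -0.51.

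Complex IV, cytochrome c oxidase, had 7 of 27 annotated genes listed. Cox6b1, a subunit facing the intermembrane space, had 13017 normalized counts in WT 1, 14746 in WT 2, 9542 in Lats1/2iΔLgr5 1 and 9036 in Lats1/2iΔLgr5 2, and the WT and Lats1/2iΔLgr5 libraries did not overlap. Per kilobase of merged annotated exon its WT level of 19607 normalized counts was the highest of the nuclear complex IV members, against 398054 for mt-Co1. That order depends on the annotated lengths, which were 708 bases for Cox6b1 and 3567 for Cox6c and can exceed the length of the main transcript. Cox5a, which sits on the matrix side, had the lowest fold change of all respiratory members at -0.72 ± 0.19, from 2347 ± 317.8 to 1425 ± 235.2 normalized counts. Cox4i1, a regulatory subunit, Cox6a1, the isoform of non-muscle tissue, Cox6c, Cox7a2 and Cox7b lay between -0.59 and -0.47. The muscle isoforms Cox6a2 and Cox7a1 were not analysed here. Non-overlap itself carries no weight in this table, since the groups do not overlap for 99.9% of its rows.

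Complex V had 9 of 18 annotated genes listed. Atp5j, the coupling factor subunit of the stalk, had 9410.3 normalized counts in WT 1, 9351 in WT 2, 6371 in Lats1/2iΔLgr5 1 and 5602 in Lats1/2iΔLgr5 2, for which the authors' deposited table gives 0.000499 as the adjusted p. The WT libraries were nearly equal and both Lats1/2iΔLgr5 libraries were far lower. Atp5mpl, a small proteolipid of the membrane part, had 4909 and 4920.1 against 3368 and 3315, and Atp5k and Atp5l, which take part in dimer formation, fell 1.59-fold and 1.48-fold. Atp5g1 and Atp5g3 encode the same mature ring subunit, and went from 5473 ± 472.5 to 3798 ± 476.2 and from 15579.8 ± 1661 to 11091 ± 469.2. Atp5e, Atp5h and Atp5j2, also stalk or membrane subunits, had log2 fold changes of -0.50, -0.51 and -0.61. RefSeq names 4 pseudogenes after Atp5k, 2 after Atp5l, 2 after Uqcrh and 1 after Chchd2, so counts of these genes may be split with near copies.

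Coq3, a methyltransferase of coenzyme Q synthesis, fell from 630.0 ± 18.3 to 424.2 ± 10.8 and Coq10b, a coenzyme Q-binding protein, from 2151 ± 94.2 to 1259 ± 64.3 normalized counts. Coq10b had 2085 normalized counts in WT 1, 2218 in WT 2, 1305 in Lats1/2iΔLgr5 1 and 1214 in Lats1/2iΔLgr5 2, and its SD was small beside the difference. Chchd2, a regulator of cytochrome c oxidase, and Chchd10, a protein of the cristae contact sites, went from 8581 ± 959.4 to 5132 ± 983.0 and from 2282 ± 127.6 to 1564 ± 136.3.

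The citric acid cycle oxidises acetyl groups and supplies the NADH and succinate that the chain uses. Of 24 annotated genes of the cycle and pyruvate dehydrogenase, 4 have a row and all 4 fell. Their log2 fold changes ran from -0.93 to -0.69 with a median of -0.81, beside -0.54 for the respiratory subunits, and the difference between the classes was not tested. Suclg1, a subunit of succinyl-CoA ligase, had 5481 normalized counts in WT 1, 5859 in WT 2, 3582 in Lats1/2iΔLgr5 1 and 3467 in Lats1/2iΔLgr5 2. The replicates lay close together and the deposited adjusted p of 7.03e-05 was the smallest of the 55 members. Ogdh, the first component of the oxoglutarate dehydrogenase complex, went from 19377 ± 3548 to 10753 ± 745.5 (-0.85 ± 0.17 on the log2 scale), and citrate synthase Cs from 19657 ± 4435 to 11534 ± 191.2. Malate dehydrogenase Mdh2 had 18368 and 27731 against 13089 and 11073 normalized counts, WT against Lats1/2iΔLgr5. WT 2 stood highest, and without it the log2 fold change of Mdh2 moved from -0.93 to -0.60. Coq10b, Ogdh, Suclg1 and the carrier gene Slc25a10 were the 4 lower members that edgeR also called on the TMM scale, at log2 fold changes of -0.41, -0.48, -0.32 and -0.44.

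**Figure D3:**
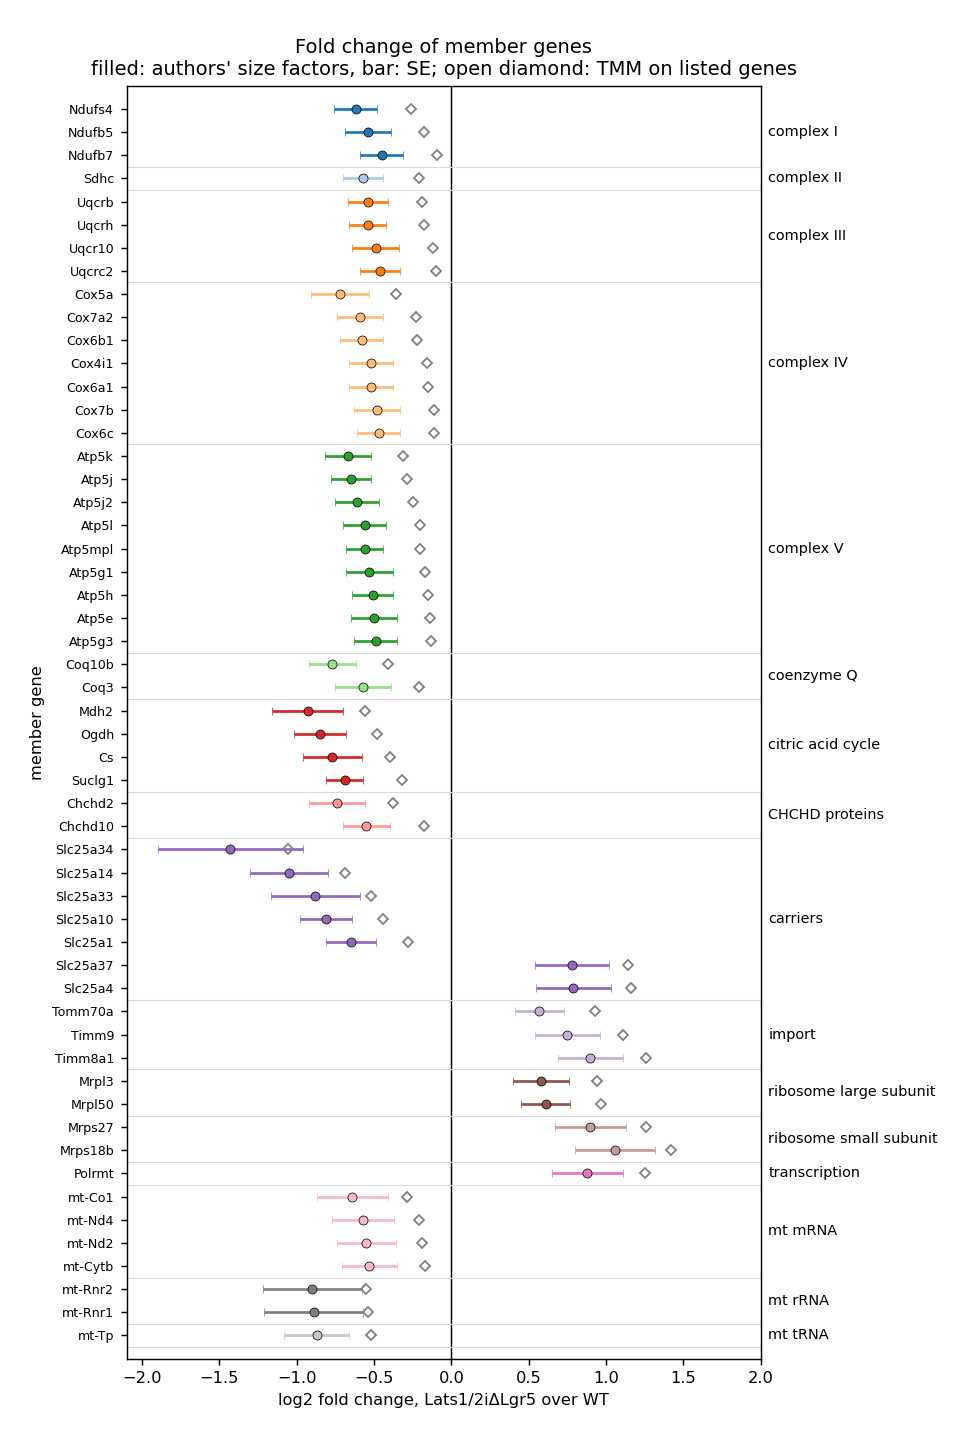
Log2 fold change of the member genes, Lats1/2iΔLgr5 over WT, on the authors' size factors (filled points, bars are SE) and on TMM factors from the listed genes (open diamonds), grouped by role. The respiratory subunits lie between -0.72 and -0.45 on the authors' factors, the 8 ribosome, import and transcription genes between 0.57 and 1.06, and the open diamonds are shifted up by 0.346 to 0.372 without a change of sign.

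The mitochondrial ribosome translates the messages of mitochondrial DNA. Of 78 annotated mitochondrial ribosomal protein genes 4 have a row (5.13%, against 20.6% of all genes tested), and all 4 rose. Mrps18b, of the small subunit, had 210.7 normalized counts in WT 1, 204.0 in WT 2, 357.6 in Lats1/2iΔLgr5 1 and 504.1 in Lats1/2iΔLgr5 2, a rise of 2.08-fold with a log2 fold change of 1.06 ± 0.26. The WT libraries were nearly equal and Lats1/2iΔLgr5 2 was the highest. Mrps27, an RNA-binding protein of the small subunit, went from 251.4 ± 38.9 to 469.9 ± 21.8 normalized counts (SD, n = 2). Mrpl3 and Mrpl50, of the large subunit, rose 1.5-fold and 1.53-fold, from 549.8 ± 10.1 to 822.9 ± 92 and from 1281 ± 85.2 to 1960 ± 205.9. The remaining annotated ribosomal protein genes were not analysed here.

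Of 26 annotated Timm and Tomm genes 3 have a row, and all 3 rose. Timm8a1 and Timm9 encode small chaperones that escort membrane proteins through the intermembrane space. Timm8a1 had 304.1 normalized counts in WT 1, 290.1 in WT 2, 512.5 in Lats1/2iΔLgr5 1 and 595.6 in Lats1/2iΔLgr5 2, and Timm9 270.1 and 259.2 against 457.2 and 434.6, with replicates of each group within a narrow band. Tomm70a, a receptor for precursor proteins on the outer membrane, moved from 1855 ± 235.5 to 2755 ± 161.3, which is 1.49-fold higher, or 0.57 ± 0.16. Polrmt, the mitochondrial RNA polymerase, is the only listed gene of 4 annotated transcription genes, with 251.1 normalized counts in WT 1, 290.1 in WT 2, 453.6 in Lats1/2iΔLgr5 1 and 545.5 in Lats1/2iΔLgr5 2. It rose 1.85-fold (adjusted p = 0.00767 in the authors' deposited table), while all 7 listed RNAs from mitochondrial DNA were lower on the same scale.

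The higher and lower classes can be set against each other inside each library, where the size factor cancels. The mean log2 count of the 25 respiratory genes exceeded that of the 8 ribosome, import and transcription genes by 3.90 and 4.10 in WT and by 2.85 and 2.51 in Lats1/2iΔLgr5, a difference of -1.33. The genes of both classes had been selected for differing, so this value describes the libraries and is not tested. The mean log2 count of the 4 mitochondrial mRNAs exceeded that of the respiratory genes by 4.76 and 4.24 in WT and by 4.49 and 4.48 in Lats1/2iΔLgr5. Here the Lats1/2iΔLgr5 libraries lay between the WT libraries, and the difference of the group means was -0.02. The citric acid cycle genes exceeded the respiratory genes by 0.94 and 1.19 in WT and by 0.80 and 0.83 in Lats1/2iΔLgr5.

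The higher and lower members also differed in level. The median base mean in the authors' deposited table was 458.4 for the 10 higher nuclear members and 5997 for the 38 lower ones. Over all listed genes the medians were 441.4 for higher and 2774 for lower genes, so that the gap between directions is shared with the rest of the table.

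**Figure D4:**
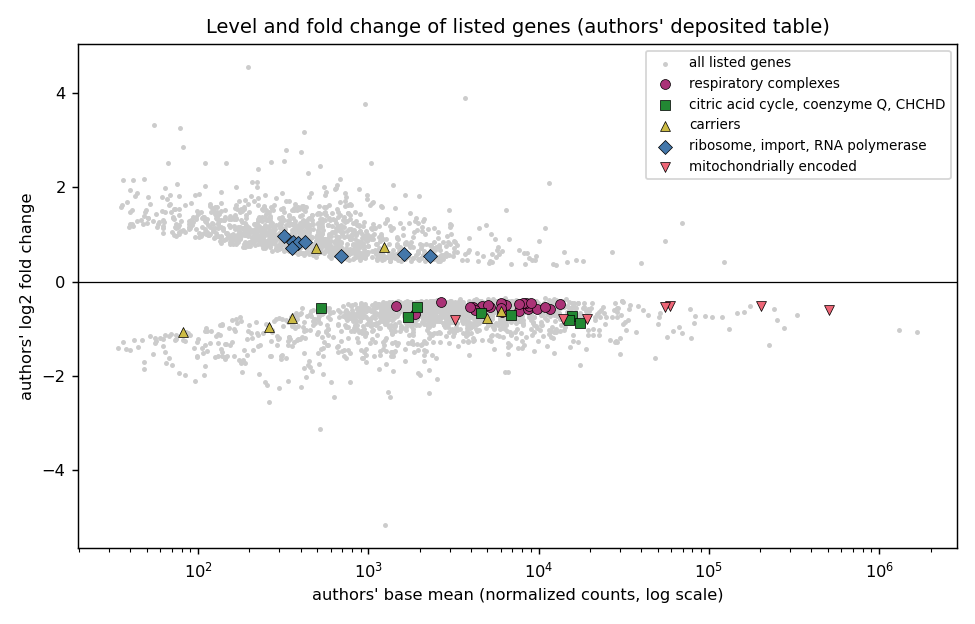
Base mean (log axis) against log2 fold change, both from the authors' deposited table, for all listed genes (grey) and the 55 members by class. The higher nuclear members have a median base mean of 458.4 and the lower ones 5997.

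Carriers of the Slc25 family move metabolites across the inner membrane, and they went both ways. Of 46 annotated carrier genes 7 have a row, 2 higher and 5 lower. Slc25a1, which exports citrate, had 6498 and 8163 against 4412 and 4927 normalized counts, WT against Lats1/2iΔLgr5, and Slc25a10, the dicarboxylate carrier, 5448 and 7192 against 3729 and 3480.4. Slc25a14, an uncoupling protein relative, fell 2.08-fold, from 353.9 ± 7.96 to 170.5 ± 27.8. Slc25a33, a pyrimidine nucleotide carrier, had 487.1 and 435.7 against 308.7 and 193.8, and its log2 fold change of -0.88 became -0.58 without Lats1/2iΔLgr5 2. Slc25a34 had 80.8 and 157.7 against 46.2 and 42.2. WT 2 alone was far above the rest, and without it the log2 fold change moved from -1.43 to -0.87 and lost its call.

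Slc25a4 encodes the adenine nucleotide translocase typical of heart and skeletal muscle, and had 875.8 normalized counts in WT 1, 934.2 in WT 2, 1229.6 in Lats1/2iΔLgr5 1 and 1905 in Lats1/2iΔLgr5 2. Lats1/2iΔLgr5 2 was far above Lats1/2iΔLgr5 1, and without Lats1/2iΔLgr5 2 the log2 fold change of 0.79 became 0.44. Of 16 muscle markers only the slow myosin gene Myh7 was listed, at 109.8 and 68.4 against 202.8 and 268.1 normalized counts, WT against Lats1/2iΔLgr5, and its part in the Slc25a4 value was not tested. Slc25a37, mitoferrin-1, imports iron and is best known from erythroid cells. It had 408.9 and 314.3 against 551.4 and 690.1, and none of 5 erythroid markers was listed.

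Promoter windows of 250 bases before to 50 after the annotated start were available from RefSeq (GRCm38.p6) for 39 of the 48 nuclear members. They were searched on both strands for the letters of 4 motifs named in connection with mitochondrial genes: CCGGAAG of ETS factors such as GABP, TGCGCA from the core of the NRF1 site, AAGATGGCG of YY1 and the E-box CACGTG. ETS and YY1 letters may overlap in the shared AAG. The ETS letters were found for 38.5% of the members and for 12.9% of 17492 protein-coding genes. The NRF1 letters were found for 20.5% against 11%, the E-box for 25.6% against 8.91% and the YY1 letters for 10.3% against 2.14%. By direction, 6 of 9 higher members and 9 of 30 lower members held the ETS letters, so the letters occurred in both directions. Among all listed genes with a window, the ETS letters were found for 21.1% of the higher and 15.1% of the lower genes, and the NRF1 letters for 19.4% and 13.7%. The E-box was found for 13.7% and 10.4% of them and the YY1 letters for 3.53% and 2.55%. A match is a description of the sequence and not a bound site.

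The 4 windows that hold both the ETS and the NRF1 letters are shown because they include members of either direction, Mrps18b and Polrmt among the higher and Atp5l and Cox6a1 among the lower genes. Polrmt lies at chr10:79746532-79746831, minus strand, Mrps18b at chr17:35916391-35916690, minus strand, Cox6a1 at chr5:115348909-115349208, minus strand, and Atp5l at chr9:44920693-44920992, minus strand. Motif letters are in capitals, and the E-box of Atp5l is marked too.
Polrmt: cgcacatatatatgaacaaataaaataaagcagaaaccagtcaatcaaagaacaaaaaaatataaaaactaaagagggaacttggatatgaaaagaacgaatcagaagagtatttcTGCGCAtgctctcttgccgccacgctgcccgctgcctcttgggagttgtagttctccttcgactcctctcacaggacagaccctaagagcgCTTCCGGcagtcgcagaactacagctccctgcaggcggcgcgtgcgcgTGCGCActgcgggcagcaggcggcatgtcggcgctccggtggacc
Mrps18b: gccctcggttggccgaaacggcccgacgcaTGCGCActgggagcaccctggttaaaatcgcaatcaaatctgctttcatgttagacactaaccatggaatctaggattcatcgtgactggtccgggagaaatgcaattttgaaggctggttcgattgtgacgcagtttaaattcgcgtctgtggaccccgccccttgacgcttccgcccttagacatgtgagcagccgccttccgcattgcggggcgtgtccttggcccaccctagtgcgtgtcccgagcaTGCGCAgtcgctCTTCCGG
Cox6a1: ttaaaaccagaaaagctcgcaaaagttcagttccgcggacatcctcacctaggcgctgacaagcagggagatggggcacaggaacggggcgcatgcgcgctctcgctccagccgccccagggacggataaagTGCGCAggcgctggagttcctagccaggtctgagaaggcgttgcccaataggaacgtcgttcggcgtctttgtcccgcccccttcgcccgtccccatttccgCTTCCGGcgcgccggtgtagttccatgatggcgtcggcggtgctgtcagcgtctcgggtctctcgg
Atp5l: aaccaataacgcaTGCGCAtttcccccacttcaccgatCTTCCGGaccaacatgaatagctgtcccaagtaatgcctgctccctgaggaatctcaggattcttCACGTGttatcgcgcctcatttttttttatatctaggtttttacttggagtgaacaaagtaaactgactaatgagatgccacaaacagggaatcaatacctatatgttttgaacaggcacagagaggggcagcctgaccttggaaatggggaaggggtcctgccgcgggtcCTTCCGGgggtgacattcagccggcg

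Beyond the members, 12 lists of other mitochondrial and metabolic genes held 266 annotated genes, of which 52 have a row, 24 higher and 28 lower. Over the whole table, 20.6% of the genes tested have a row and 42.9% of listed genes are higher. All listed genes of 4 lists rose, though each list has few rows and a shared direction was not tested. The 4 lists were translation factors (3 of 27 annotated genes listed), RNA processing (3 of 24), mitochondrial DNA maintenance (4 of 16) and proteases with prohibitins (5 of 16). Atad3a, a nucleoid-associated ATPase, had 631.0 normalized counts in WT 1, 581.2 in WT 2, 1184 in Lats1/2iΔLgr5 1 and 1847 in Lats1/2iΔLgr5 2, and Pus1, a pseudouridine synthase for tRNA, 222.1 and 227.2 against 461.8 and 548.7. Lrpprc, which stabilises mitochondrial mRNA, had 879.6 and 895.6 against 1326 and 1569, while the 4 listed mitochondrial mRNAs were lower. The peptidase gene Pitrm1 and the prohibitin gene Phb rose with authors' deposited log2 fold changes of 0.86 and 0.73.

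Of 38 annotated respiratory chain assembly and electron transfer genes 5 have a row, and all fell. Cycs, which encodes cytochrome c, had 15166 normalized counts in WT 1, 19212 in WT 2, 10187 in Lats1/2iΔLgr5 1 and 9184 in Lats1/2iΔLgr5 2. Sco1 and Surf1, assembly factors of cytochrome c oxidase, had authors' deposited log2 fold changes of -0.55 and -0.49, close to those of the oxidase subunits. Among 21 import partners, the chaperones Hspa9 and Hspd1 and the outer membrane protein gene Mtx3 rose and the Hspa9 cofactor Grpel2 fell. Hspa9 had 7227 and 7199 against 9976 and 10596 normalized counts, WT against Lats1/2iΔLgr5.

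Regulators of mitochondrial biogenesis went both ways, with 4 of 16 annotated genes listed. Pprc1, a coactivator related to PGC-1, had 435.4 normalized counts in WT 1, 319.8 in WT 2, 708.0 in Lats1/2iΔLgr5 1 and 971.5 in Lats1/2iΔLgr5 2. Esrra, a nuclear receptor that activates respiratory genes, had 3424 and 4661 against 2633 and 2547, and its edgeR log2 fold change of -0.64 became -0.40 without WT 2 and lost its call. Nfe2l2, the oxidative stress factor NRF2, had 16605 and 16049 against 12852 and 12204. Esrrg, a relative of Esrra, was listed as higher at 10.1 and 5.51 against 16.3 and 171.9, a value carried by Lats1/2iΔLgr5 2. Without that library its edgeR log2 fold change of 3.59 became 1.06.

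**Figure D5:**
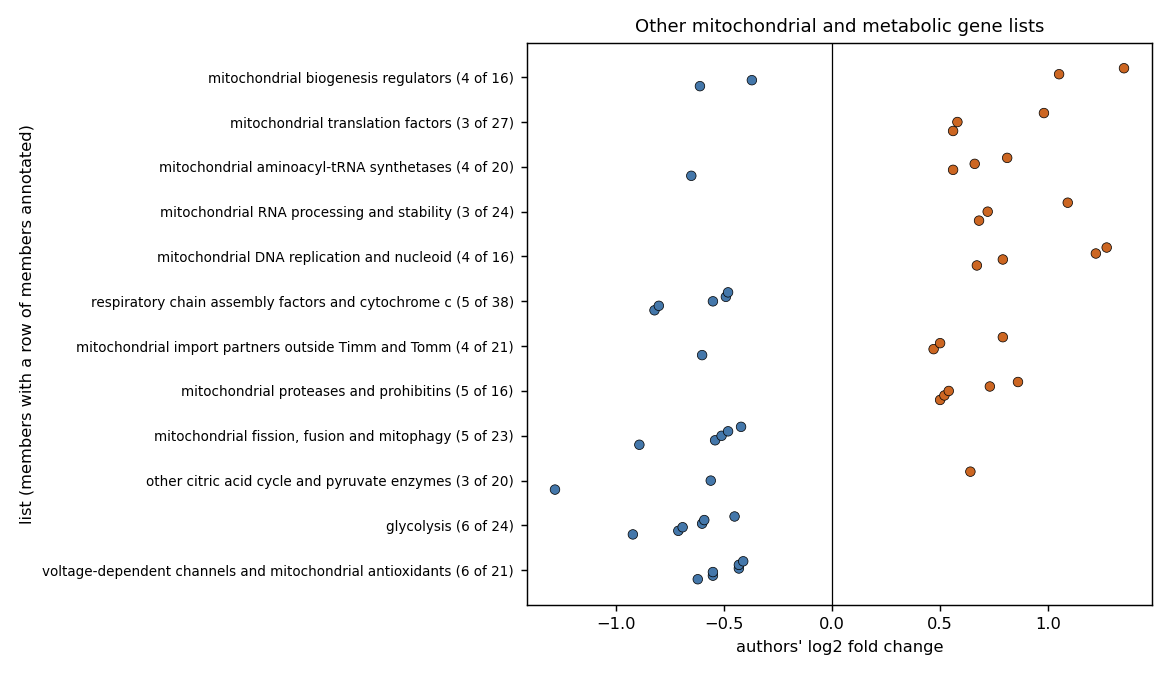
Authors' deposited log2 fold change of each listed gene in 12 further mitochondrial and metabolic lists, Lats1/2iΔLgr5 over WT, with the number of listed and annotated genes beside each name; orange is higher and blue lower. Translation, RNA processing, DNA maintenance and protease genes lie above 0, and assembly, mitophagy, glycolysis and channel genes below 0.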

How the data were processed

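RNA of 4 libraries was used. Per the labels' protocols, mRNA was selected, prepared with a strand-marking kit and read from both ends at 75 bases. The submitters' processing notes name the genome build GRCm38 and the tools TopHat2 2.1.1, HTSeq and DESeq2; their settings are not given in those sources. The deposited table holds raw counts per gene and library, the authors' base mean (a signal, the mean of normalized counts), a log2 fold change and its SE, a Wald statistic (a score), p-values and adjusted p-values, per the file headers. It is limited to genes with an adjusted p of at most 0.05, and a gene without a row was not analysed here.

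Size factors of the authors were solved from base means and counts, with rebuilt base means within 0.0119%. The counts were tested with edgeR 4.0.16 (quasi-likelihood, R 4.3.3, filterByExpr, which removed 1 gene, Benjamini-Hochberg over 2700 genes, threshold 0.05). DESeq2 1.42.0, TMM, DESeq2 size factors, no filter, a replicate block and each library left out were alternatives. Symbols from GENCODE M21 matched 2698 of 2701 IDs. Table starts lie 1 base below GENCODE's in 2214 genes, and 1 was added to starts printed.

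The members and lists were chosen with earlier results of these data known. Named were all rows on the mitochondrial chromosome, every member of a class with up to 8 rows (otherwise the 6 smallest adjusted p-values and the 2 lowest and 2 highest fold changes), and up to 4 genes a list by smallest adjusted p. Atp5g1, Lats1 and Myh7 are named outside this rule or as checks. Some genes that the rule covers are counted but not reported here by name.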

Additional observations from a re-analysis of the deposited data

How the results depend on the processing

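On the authors' size factors, edgeR's quasi-likelihood test with Benjamini-Hochberg adjustment over 2700 genes called all 10 higher and 38 lower nuclear members and all 7 mitochondrially encoded members, and removing the low-count filter or using DESeq2's Wald test changed none of these calls. Because the table holds only genes already called, this is no separate evidence. TMM scaling gave 4 lower nuclear members, 0 mitochondrially encoded members and 495 lower and 1157 higher genes in all. DESeq2 size factors from the listed genes gave 2, 0, 432 and 1157. The median log2 fold change was then -0.18 and -0.14 for nuclear members and -0.29 and -0.25 for mitochondrially encoded members. The median shifts over all listed genes were 0.362 and 0.407. Both scalings were computed on the listed genes alone and share the limit given above for TMM. No member reversed; over the table all 1542 lower genes stayed below 0 with TMM and 1523 with DESeq2 factors.

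Leaving out 1 library gave 0 to 9 higher and 0 to 36 lower nuclear members, 0 to 5 lower mitochondrially encoded members, and 4 to 1038 higher and 1 to 1416 lower genes in all, with the lowest values without Lats1/2iΔLgr5 2, where 19 of 48 nuclear and 1 of 7 mitochondrially encoded members had an unadjusted p under 0.05. The other replicate of that group is then alone and is assumed to vary like WT. With a replicate block, 9 higher and 36 lower nuclear members and 7 mitochondrially encoded members were called, beside 1084 higher and 1451 lower genes in all. Same-numbered libraries deviated with a correlation of -0.162 over all listed genes, which cannot decide whether the numbers pair them. For the mitochondrially encoded genes the median log2 ratio of library 2 to library 1 was -0.42 in WT and -0.34 in Lats1/2iΔLgr5. A crossed pairing, chosen after seeing the data, called 10, 38 and 3, beside 1142 and 1518 in all. With 2 libraries a group, the smallest two-sided exact permutation p for any single value is 0.333.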

Other observations

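Lists of glycolytic and of channel and antioxidant genes held listed members of a single direction, though most of their annotated genes have no row. Of 24 annotated glycolytic genes 6 have a row in the authors' deposited table, and all 6 fell. Ldha, lactate dehydrogenase, had 34477 normalized counts in WT 1, 41638 in WT 2, 23569 in Lats1/2iΔLgr5 1 and 22295 in Lats1/2iΔLgr5 2, and aldolase Aldoa 22611 and 24122 against 15618 and 15223. Pfkp, a phosphofructokinase, had 5878 and 8493 against 3685 and 3657, with WT 2 the highest library. Of 21 annotated channel and antioxidant genes 6 have a row, and all fell, among them Vdac2, a channel of the outer membrane, at 22581 and 24468 against 13663 and 16429, and Smdt1, a part of the calcium uniporter, at a deposited log2 fold change of -0.55. The malic enzyme gene Me1 had 44739.5 normalized counts in WT 1, 37601 in WT 2, 18232 in Lats1/2iΔLgr5 1 and 14484 in Lats1/2iΔLgr5 2, and Acly, the cytosolic enzyme that splits citrate, moved the other way at 2974 and 2968 against 4255 and 5127. Of 23 annotated fission, fusion and mitophagy genes 5 have a row, and all fell. Bnip3, a mitophagy receptor, had 3239 and 2596 against 1944 and 937.1, with Lats1/2iΔLgr5 2 far below Lats1/2iΔLgr5 1, and its edgeR log2 fold change of -1.02 became -0.59 without Lats1/2iΔLgr5 2 and -1.64 without Lats1/2iΔLgr5 1. Its relative Bnip3l had 2765 and 2819 against 2019 and 1852.

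Among the mitochondrial aminoacyl-tRNA synthetases, 4 of 20 have a row. Tars2, Yars2 and Iars2 rose, with deposited log2 fold changes of 0.66, 0.81 and 0.56. Lars2 fell, at 28188 normalized counts in WT 1, 19439 in WT 2, 16978 in Lats1/2iΔLgr5 1 and 12448 in Lats1/2iΔLgr5 2. Its counts were far above those of the other 3, and they were highest in WT 1 and lowest in Lats1/2iΔLgr5 2, an order also seen in the mitochondrial rRNAs, in mt-Co1, mt-Cytb, mt-Nd4 and mt-Tp, and in nuclear members such as Atp5e and Atp5j. Without WT 1 the edgeR log2 fold change of Lars2 moved from -0.69 to -0.40 and was no longer called. mt-Rnr2 had 32437 and 17338 against 15241 and 11505 in the same libraries.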
